A study of Rattus norvegicus with 48 samples.

Results

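Albumin, 8 apolipoproteins and the plasma glycoprotein fetuin-A were followed on rat arrays as 10 genes: Alb, Apoa1, Apoa2, Apoa4, Apob, Apoc1, Apoc3, Apoe, Apoh and Ahsg. They were found as the probe sets whose single gene symbol in the platform annotation was one of these names, which gave 13 of 31042 probe sets and 10 of 14217 named genes. In each tissue a gene was represented by the probe set with the highest mean, and Alb, Apob and Apoe had a second probe set each. The animals were male Sprague-Dawley rats dosed once by mouth with a capsule of the explosive RDX, at 18 or 3 mg/kg, amounts meant to stay below those that cause seizures. Liver and brain cortex were taken at 0, 4, 24 and 48 h in each dose arm, with 3 arrays for each of the 16 groups and 48 arrays in all. All groups shared the strain, the sex, paired housing and free access to food. No vehicle arm, age or clock time is given in the labels, and each later group was set against the 0 h group of its own arm. It is not stated that replicate arrays are of separate animals, so p-values measure only the spread between these arrays.

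Apolipoproteins are the protein coat of the particles that carry fat and cholesterol in blood. Apob is the structural protein of very low density lipoproteins, Apoa1 and Apoa2 are those of high density lipoproteins, and Apoa4 is made in gut and, in rodents, in liver. Apoc1 and Apoc3 restrain the clearance of triglyceride-rich particles, and Apoe is the ligand by which receptors take remnants up. Apoh, also called beta-2-glycoprotein I, binds phospholipid, Ahsg restrains calcification of tissue, and albumin carries fatty acids and many drugs. Hepatocytes are the main source of these proteins in blood. Apoe is also made in brain, chiefly by astrocytes, where it moves cholesterol between cells. In the genome Apoa1, Apoc3 and Apoa4 lie in a shared cluster, and Apoe lies beside Apoc1.

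The promoters of Alb and Apoe are shown because these genes set the frame of the results, Alb as a transcript known from hepatocytes and Apoe as the member abundant in both tissues. The sequences are those of RefSeq for the GRCr8 assembly and run from 250 bases before to 50 bases after a start site. The Alb window lies on the minus strand at chr14:17906930-17907229, and the Apoe window, 1 of 3 starts listed for the gene, on the minus strand at chr1:88484650-88484949. Capitals mark matches to any of 5 motifs searched on both strands.
Alb: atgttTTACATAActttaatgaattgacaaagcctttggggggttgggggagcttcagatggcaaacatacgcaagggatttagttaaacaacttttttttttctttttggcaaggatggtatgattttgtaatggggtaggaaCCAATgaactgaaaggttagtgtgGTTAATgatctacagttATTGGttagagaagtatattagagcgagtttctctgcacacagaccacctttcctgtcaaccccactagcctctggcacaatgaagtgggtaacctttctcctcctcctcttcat
Apoe: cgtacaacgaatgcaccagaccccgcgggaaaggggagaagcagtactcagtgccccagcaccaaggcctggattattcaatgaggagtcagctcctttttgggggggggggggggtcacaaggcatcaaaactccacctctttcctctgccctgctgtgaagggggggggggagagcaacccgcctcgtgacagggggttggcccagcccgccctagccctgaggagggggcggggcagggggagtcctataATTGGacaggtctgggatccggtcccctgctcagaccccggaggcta
The TATA box was searched as TATAAA and the box of the factor NF-Y as CCAAT. A core of the site known for HNF1 was searched as GTTAAT, the D box known for the factor Dbp as TTATGTAA, and a site known for HNF4 as CAAAGTCCA. The Alb window held CCAAT on the same strand, with its first base at -106, and on the opposite strand at -65. It held GTTAAT at -82 and TTATGTAA, read on the opposite strand, at -245. Only exact matches were marked, so a site that differs from a motif stays in lower case. Whether any factor binds at a marked match was not tested. The Apoe window held 1 match, to CCAAT on the opposite strand at 4. Of 33469 promoter windows of this length, 37.5% held the motif CCAAT and 7.45% the motif GTTAAT. The D box was in 0.893% of them, the TATA box in 14.2% and the HNF4 site in 0.391%. Promoter entries were found for 6 of the 10 genes, Alb, Apoa4, Apoc1, Apoe, Apoh and Ahsg, with 9 windows between them. CCAAT was found in windows of Alb, Apoc1 and Apoe, GTTAAT in those of Alb and Apoc1, and TTATGTAA in that of Alb. The Apoc1 windows overlap and share the same GTTAAT match. TATAAA and CAAAGTCCA were each in 0 of the 9 windows.

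In liver all 10 transcripts lay below their levels in 22 other arrays in 18 mg/kg 4 h replicate 1, and 7 of the 10 did in 3 mg/kg 0 h replicate 2. These 2 arrays had compressed values: the SD over all probe sets was 1.38 and 1.49, against 1.82 to 2.08 in the other 22. Over those 22 arrays the SD of a gene's log2 level was between 0.036 (Alb) and 0.28 (Apoa4), with a median of 0.097 over the 10 genes. The median SD was 0.26 over all 31042 probe sets and 0.17 over the 435 probe sets with a mean above 12. Apoa4 ranged from 11.67 to 12.82 on the log2 scale, Apoe from 12.997 to 14.05 and Apob from 12.38 to 13.28, while Alb stayed between 14.26 and 14.39 and Apoh between 13.48 and 13.63. The liver means of Alb and Apoh lay above those of 99.997% and 99.92% of all probe sets. Whether the signal still rises in step with RNA at such levels was not tested, so a narrow range there does not show steady RNA. The precision of these levels is limited by the number of arrays, and in whole tissue fewer cells of a type and less RNA per cell cannot be told apart. The log2 levels of different genes come from different probes and are not compared with each other.

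**Figure D1:**
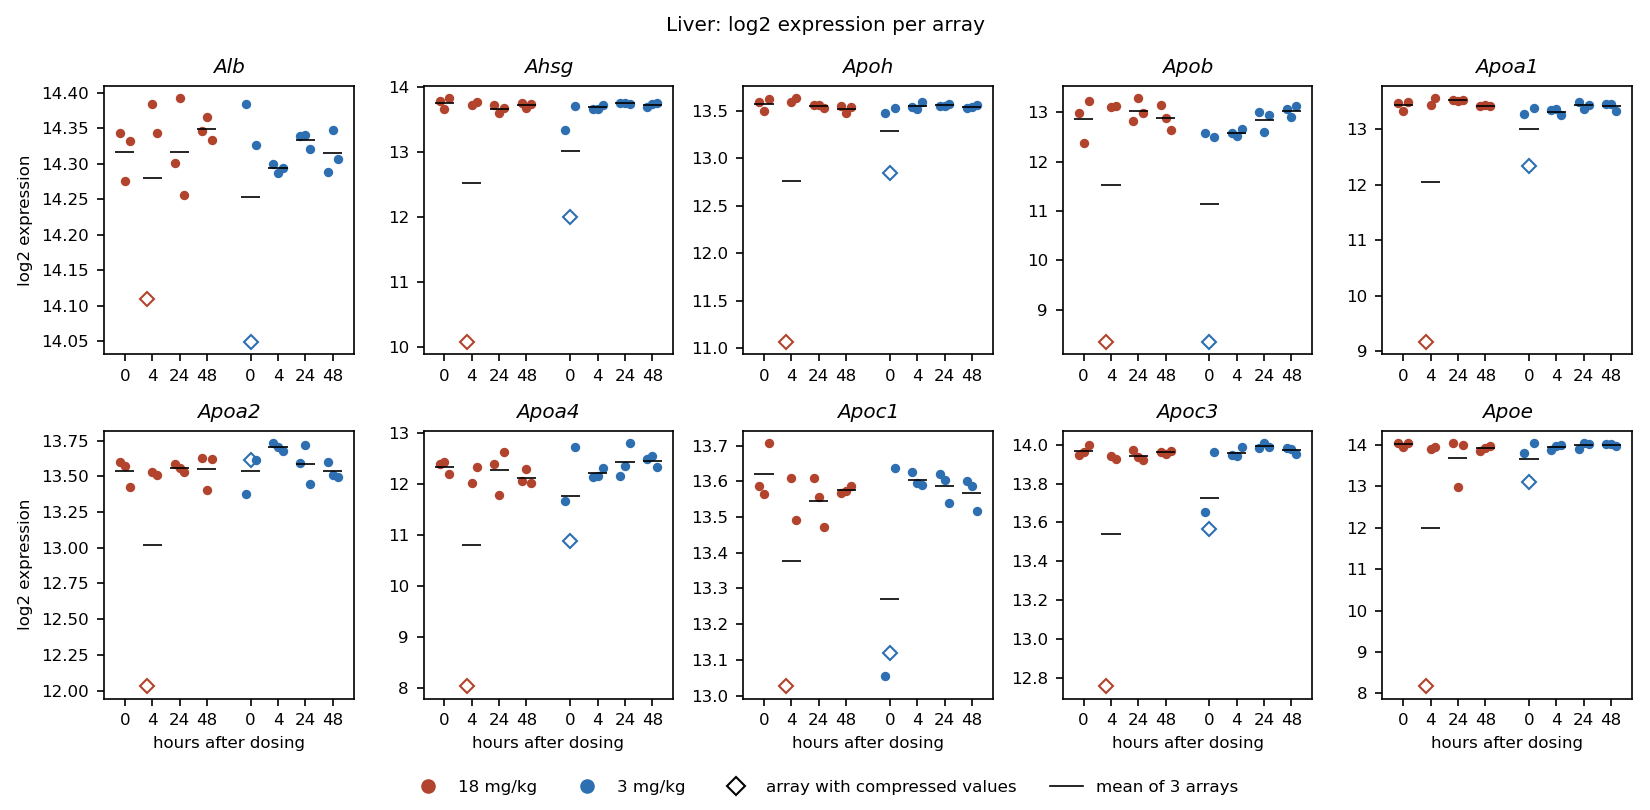
Log2 expression of the 10 genes in the 24 liver arrays, by hours after dosing, with 18 mg/kg (red) left of 3 mg/kg (blue) and each y axis on its own scale. Points are arrays, lines are means of 3 arrays, and open diamonds are the 2 arrays with compressed values. Apoe was at 8.17 in 18 mg/kg 4 h replicate 1, and Apob was at 8.36 in both of these arrays.

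Apoe, the remnant ligand, had log2 levels of 14.05, 13.94 and 14.05 at 0 h in the 18 mg/kg arm. The 4 h arrays of that arm had 8.17, 13.90 and 13.96, the 24 h arrays 14.05, 12.997 and 14.004, and the 48 h arrays 13.85, 13.92 and 13.99. In the 3 mg/kg arm the levels were 13.80, 13.11 and 14.04 at 0 h, 13.88, 13.98 and 14.002 at 4 h, 13.91, 14.05 and 14.02 at 24 h, and 14.03, 14.02 and 13.98 at 48 h. Apart from 3 arrays the levels lay between 13.80 and 14.05, and 2 of those 3 were the compressed arrays. The other was 18 mg/kg 24 h replicate 2, in which Alb (14.39) and Apob (13.28) were at their highest in liver and Apoa4 was at 11.79. The change at 4 h after 18 mg/kg was a log2 difference of -2.01 ± 0.86 (SE, n = 3 per group; limma adjusted p = 0.44), and it was -0.091 without replicate 1. The second probe set of Apoe, with a median log2 level of 5.34 in the other 22 arrays, was instead at its highest, 7.69, in that array.

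Apob, the structural protein of very low density lipoproteins, had log2 levels of 12.99, 12.38 and 13.22 at 0 h, 8.36, 13.11 and 13.13 at 4 h, 12.83, 13.28 and 12.99 at 24 h, and 13.14, 12.88 and 12.65 at 48 h in the 18 mg/kg arm. In the 3 mg/kg arm it had 12.57, 8.36 and 12.50 at 0 h, 12.58, 12.52 and 12.65 at 4 h, 13.01, 12.60 and 12.94 at 24 h, and 13.06, 12.90 and 13.12 at 48 h. The 24 h and 48 h arrays of the 3 mg/kg arm lay above its 0 h arrays. The change at 48 h was a log2 difference of 1.89 ± 0.93 (SE, n = 3 per group; limma adjusted p = 0.16). Without the 2 compressed arrays it was 0.49, with a 95% interval of 0.048 to 0.94 and limma adjusted p = 0.16. It was the change with the smallest adjusted p among the 60 pairs of a gene and a later group in either fit, and leaving out 18 mg/kg 4 h replicate 1 alone gave adjusted p = 0.035 for it and 0.048 for Ahsg, in a fit that called 26.4% of all probe sets in that comparison.

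Apoa4, the apolipoprotein with the widest spread in the 22 arrays, had log2 levels of 12.40, 12.43 and 12.21 at 0 h, 8.04, 12.03 and 12.34 at 4 h, 12.39, 11.79 and 12.64 at 24 h, and 12.06, 12.30 and 12.02 at 48 h in the 18 mg/kg arm. In the 3 mg/kg arm it had 11.67, 10.89 and 12.74 at 0 h, 12.14, 12.17 and 12.33 at 4 h, 12.16, 12.37 and 12.82 at 24 h, and 12.49, 12.55 and 12.33 at 48 h. At 0 h the 3 mg/kg arm held the lowest array outside the compressed pair and the second highest of all, and its 0 h arrays overlapped those of each of its later groups. At 48 h the 18 mg/kg arrays lay below the 3 mg/kg arrays, with a log2 difference of -0.33 (limma adjusted p = 1). The change at 4 h after 18 mg/kg was -1.55 ± 0.67 (SE, n = 3 per group; limma adjusted p = 0.44), and -0.17 without the 2 compressed arrays.

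Alb, the transcript of serum albumin, was at 14.34, 14.28 and 14.33 at 0 h, 14.11, 14.38 and 14.34 at 4 h, 14.30, 14.39 and 14.26 at 24 h, and 14.35, 14.37 and 14.33 at 48 h in the 18 mg/kg arm. In the 3 mg/kg arm it was at 14.38, 14.05 and 14.33 at 0 h, 14.30, 14.29 and 14.29 at 4 h, 14.34, 14.34 and 14.32 at 24 h, and 14.29, 14.35 and 14.31 at 48 h. Its group means ran from 14.25 to 14.35 on the log2 scale. Its changes from 0 h in the 6 comparisons lay between -0.038 and 0.080, and their 95% intervals between -0.35 and 0.39. The second Alb probe set stood at a median of 14.05 in the other 22 arrays and at 11.30 in 18 mg/kg 4 h replicate 1 and 12.65 in 3 mg/kg 0 h replicate 2, so the 2 probe sets of this gene differed in how far they fell in these arrays.

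The group means of the remaining 6 genes outside the 2 groups with a compressed array spanned 0.20 log2 units for Apoa1, 0.17 for Apoa2, 0.090 for Ahsg, 0.074 for Apoc1, and 0.050 for Apoc3 and Apoh. In the order of the 8 group means, the 18 mg/kg 4 h group was lowest for 7 of the 10 genes and the 3 mg/kg 0 h group for Alb, Apob and Apoc1. For Apoc1 the lowest array of the 3 mg/kg 0 h group was replicate 1 (13.06), with the compressed replicate 2 at 13.12. Of the 70 pairs of neighbours in these orders, 4 were further apart than the larger of their 2 SDs. They were 3 mg/kg 48 h above 3 mg/kg 4 h for Apoa1, 3 mg/kg 24 h above 3 mg/kg 4 h for Apob, and 18 mg/kg 24 h above 3 mg/kg 0 h and 3 mg/kg 24 h above 3 mg/kg 48 h for Apoc3. The other 66 lay within that SD. The pairs were formed by sorting the same means, so this is a description and no test, and the 3 mg/kg 0 h group holds a compressed array. For Apoa1 the 18 mg/kg arrays at 24 h (13.51, 13.50 and 13.53) lay above those at 0 h (13.47, 13.33 and 13.49), a log2 difference of 0.087 (limma adjusted p = 1). For Apoa2 the 3 mg/kg arrays at 4 h (13.73, 13.70 and 13.68) lay above those at 0 h (13.38, 13.62 and 13.61), a log2 difference of 0.17 (limma adjusted p = 0.74). Replicate 1 of the 3 mg/kg 0 h group was the lowest of the 22 arrays for 6 genes: Apoa2, Apoa4, Apoc1 (13.06), Apoc3 (13.65), Apoh (13.48) and Ahsg (13.34).

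In 18 mg/kg 4 h replicate 1 each of the 10 genes lay below its level in all 22 other arrays, but by very different amounts. Apoe was 56.4-fold below its median in those arrays, Apob 23.6-fold, Apoa4 19.6-fold, Apoa1 19.1-fold, Ahsg 12.5-fold and Apoh 5.62-fold. Apoa2 was 2.93-fold below, Apoc3 2.31-fold, Apoc1 1.48-fold and Alb 1.17-fold. In 3 mg/kg 0 h replicate 2, 7 of the 10 lay below all 22 arrays, Apob by 23.6-fold below the median and Ahsg by 3.30-fold, while Apoa2 was 0.038 log2 units above it. The 2 arrays thus shared the low level of Apob and differed in Apoe and Apoa1. The median over the 10 genes was -3.07 in 18 mg/kg 4 h replicate 1 and -0.79 in 3 mg/kg 0 h replicate 2 as a log2 difference, beside -2.29 and -1.24 over all 435 probe sets with a mean above 12. Bright transcripts in general were low in these arrays, and nothing particular to the 10 genes was tested.

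**Figure D2:**
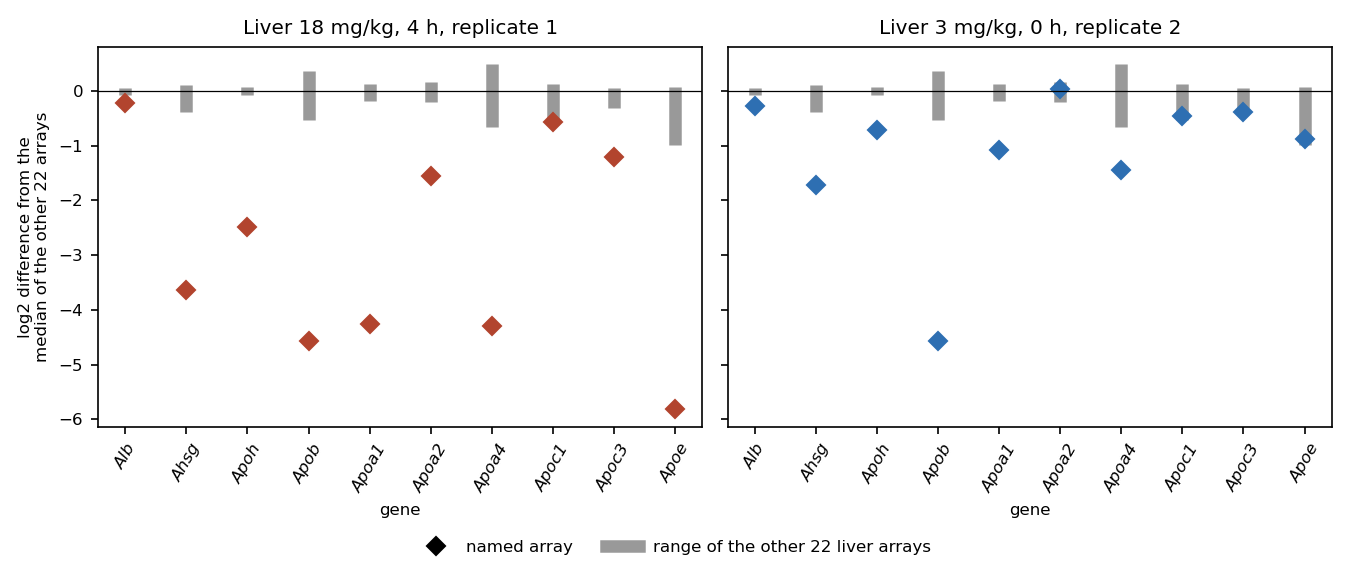
Log2 difference of each gene in the 2 compressed liver arrays (diamonds) from its median in the other 22 liver arrays, with the range of those 22 as grey bars. In 18 mg/kg 4 h replicate 1 the differences ran from -5.82 for Apoe to -0.22 for Alb, and in 3 mg/kg 0 h replicate 2 from -4.56 for Apob to 0.038 for Apoa2.

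Some other measures stood apart in these arrays and some did not. The gap of actin, its 3' control probe set minus its 5' one on the log2 scale, is a measure of RNA integrity, and it was 0.62 in 18 mg/kg 4 h replicate 1 and 3.29 in 3 mg/kg 0 h replicate 2, against 2.76 to 4.38 in the other 22. That of GAPDH was 1.02 and 1.42, against 2.15 to 4.05. Compressed values can narrow a gap between probe sets, so in these 2 arrays the gaps were not read as RNA integrity. The mean log2 level of 11 hepatocyte markers was 10.93 and 11.48, against 12.65 to 13.22, that of 4 Kupffer cell markers 9.79 and 9.72, against 10.44 to 11.11, and that of 3 red blood cell markers 7.11 and 8.41, against 9.02 to 9.92. The actin gap of 3 mg/kg 0 h replicate 2 thus lay within the range of the other 22, as did the mean of 7 intestine and pancreas markers in both arrays, at 5.89 and 6.05, against 5.88 to 8.82. Their part in the levels of the 10 genes was not tested.

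No gene of the 10 passed the threshold in any liver comparison with 0 h, in which limma with Benjamini-Hochberg adjustment over all 31042 probe sets called a gene at an adjusted p under 0.05. Over all probe sets 0.0258%, 0% and 0.0966% were called at 4, 24 and 48 h after 18 mg/kg, and 0.0226%, 0% and 9.34% after 3 mg/kg. At an unadjusted p under 0.05 there were 4 genes at 4 h after 18 mg/kg (Apoa1, Apoa4, Apoe and Ahsg) and 0 in the other 5 comparisons. Of all 31042 probe sets 3536, 753 and 517 were under it at 4, 24 and 48 h after 18 mg/kg. After 3 mg/kg 4402, 6213 and 9936 were. At 4 h after 18 mg/kg the log2 changes of the 10 genes had a median of -1.02, with 0 of 10 above 0, beside a median of 0.077 over all probe sets. After 3 mg/kg the medians were 0.31, 0.33 and 0.33 at 4, 24 and 48 h, with 10, 10 and 9 of 10 above 0, beside medians of -0.079, -0.086 and -0.16 over all probe sets. Each of these comparisons holds a compressed array, in which the 435 probe sets with a mean above 12 were low too. Their median log2 difference was -2.29 in 18 mg/kg 4 h replicate 1 and -1.24 in 3 mg/kg 0 h replicate 2. The medians over all probe sets are thus not matched in level to the 10 genes. The comparisons within an arm share their 0 h arrays. The arrays of the later group did not overlap those at 0 h for 1, 1 and 0 genes at 4, 24 and 48 h after 18 mg/kg, where the share over all probe sets was 11.4%, 9.74% and 9.54%, and for 1, 4 and 2 genes after 3 mg/kg, where it was 20.6%, 18.9% and 36.3%.

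Without the 2 compressed arrays the changes were small. The 60 log2 differences lay between -0.33 and 0.49, with 95% intervals that reached from -0.74 to 0.94, and 0 were called. Of these 60, 1 had an unadjusted p under 0.05, Apob at 48 h after 3 mg/kg. Over all probe sets this fit called 0.0451%, 0% and 0.177% at 4, 24 and 48 h after 18 mg/kg, and 0.0258%, 0% and 4.42% after 3 mg/kg. At 4 h after 18 mg/kg the median of the 10 genes became -0.013, and at 4, 24 and 48 h after 3 mg/kg it became 0.047, 0.14 and 0.13. The Alb intervals in that fit lay between -0.32 and 0.30, for the probe set that was 1.17-fold low in 18 mg/kg 4 h replicate 1 where the second Alb probe set was 6.71-fold low.

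**Figure D3:**
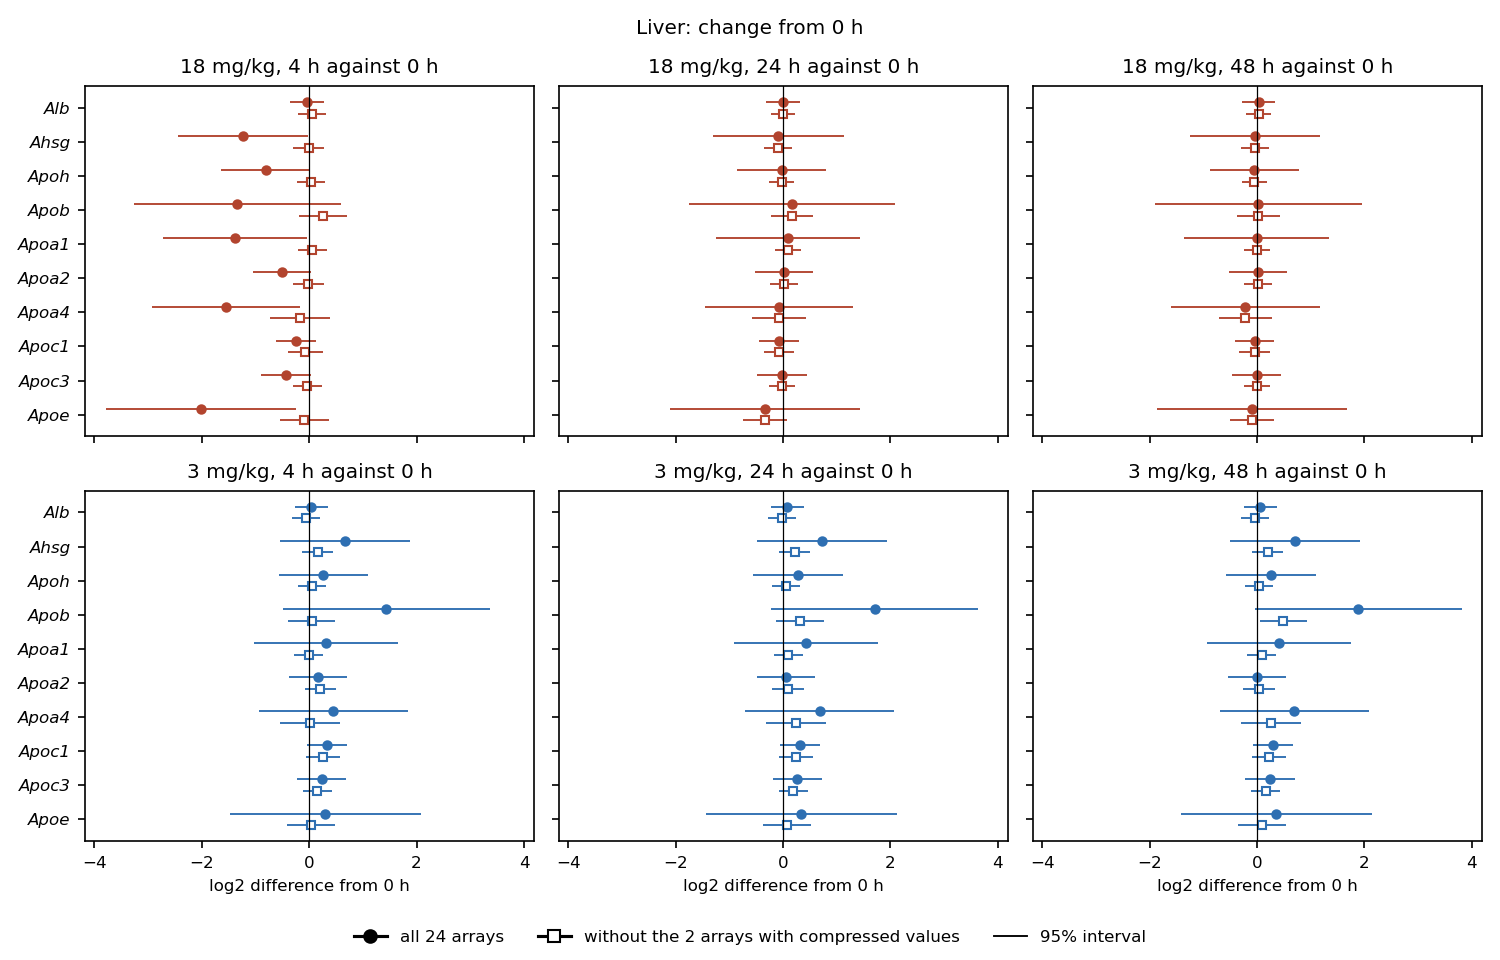
Log2 difference of each gene from its own 0 h group in liver at 4, 24 and 48 h after 18 mg/kg (upper row) and 3 mg/kg (lower row), with 95% intervals, for all 24 arrays (circles) and without the 2 compressed arrays (squares). With all arrays Apoe stood at -2.01 at 4 h after 18 mg/kg and Apob at 1.89 at 48 h after 3 mg/kg; without the 2 arrays the 60 differences lay between -0.33 and 0.49.

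The other designs gave the same counts. In the comparison of all later times with 0 h, 0 of the 10 genes passed (limma; 0.0483% of all probe sets called), with 0 at an unadjusted p under 0.05 and a smallest adjusted p of 0.59. Between the doses at matched times 0 passed at 0, 4, 24 and 48 h, where 0%, 0%, 0.087% and 0.029% of all probe sets were called. At 4 h 3040 of 31042 probe sets had an unadjusted p under 0.05. The only such values among the 10 genes at any time were those of Apoa2, Apoa4 and Apoe at 4 h, with log2 differences of -0.68, -1.41 and -1.95 between 18 and 3 mg/kg. Without the 2 compressed arrays these were -0.19, -0.030 and -0.027. The arrays of the doses did not overlap for 0, 2, 3 and 1 genes at 0, 4, 24 and 48 h, where the share over all probe sets was 20.1%, 15.5%, 8.98% and 16.1%. Testing by F whether the time courses differed between doses called 0 of the 10 (0.00966% of all probe sets), and the F test for any difference among the 8 groups 0 (0.213%). Neither had a gene at an unadjusted p under 0.05.

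The pathway around these genes was read through 3 lists. Of 28 measured genes for lipoprotein assembly, remodelling and uptake, 3 rose at 48 h after 3 mg/kg and 0 were called in the other liver comparisons with 0 h. Sar1b, the GTPase that loads lipoproteins into transport vesicles, was at 11.10 ± 0.18 at 48 h and 9.82 ± 0.935 at 0 h (SD, n = 3 each), a log2 difference of 1.29 ± 0.31 (SE; limma adjusted p = 0.026). Lrpap1, the chaperone of lipoprotein receptors, differed by 1.21 ± 0.29 (adjusted p = 0.026). Abcg5, a subunit of the sterol exporter into bile, was at 8.51 ± 0.14 at 48 h and 6.43 ± 0.63 at 0 h (SD, n = 3 each), a log2 difference of 2.07 ± 0.52 (SE; limma adjusted p = 0.027). Without the 2 compressed arrays Lrpap1 (1.12) and Abcg5 (1.76) remained called and Sar1b was at 0.77 (adjusted p = 0.056). That fit kept replicates 1 and 3 at 3 mg/kg 0 h. Among the other 22 arrays replicate 1 had the lowest SD over probe sets (1.82) and the highest actin gap (4.38). It also had the lowest hepatocyte marker mean of them (12.65), and its Lrpap1 level was 7.90. Its part in these changes was not tested. The list's median change was 0.65, with 23 of 28 above 0, beside -0.16 over all probe sets, and was 0.31 without the 2 compressed arrays. The 3 calls among 28 genes stand beside 9.34% of all probe sets called, a share too near to set the list apart.

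Among 18 measured transcription factors known to act on these genes, 1 was called against 0 h in liver with all arrays, Nr1d1, which rose at 4 h in both arms. Nr1d1, the repressor REV-ERB alpha, which is known in mice to lower Apoc3, was at 7.60, 9.19 and 8.97 at 4 h after 18 mg/kg, against 5.16, 5.84 and 5.30 at 0 h. After 3 mg/kg it was at 9.14, 9.19 and 8.81 at 4 h, against 5.48, 5.62 and 6.41 at 0 h. Each 4 h array lay above each 0 h array of its arm. Nr1d1 rose by a log2 difference of 3.15 ± 0.50 after 18 mg/kg and 3.21 ± 0.50 after 3 mg/kg (SE, n = 3 per group; limma adjusted p = 0.016 and 0.011). Over all probe sets 0.0258% and 0.0226% were called in these comparisons. With no vehicle arm and no clock time in the labels, dose and time of day cannot be told apart in any change at 4 h. Apoc3 in the same comparisons had log2 differences of -0.43 and 0.23, and -0.036 and 0.15 without the 2 compressed arrays. Dbp, the D box factor known to bind the Alb promoter, passed the test for any difference among the 8 groups (limma adjusted p = 0.02). It averaged 7.64 ± 1.10 at 4 h and 5.76 ± 0.135 at 0 h when 18 mg/kg had been given, and 7.32 ± 0.46 at 4 h and 5.63 ± 0.40 at 0 h for 3 mg/kg (SD, n = 3 each). Its change at 4 h after 18 mg/kg had adjusted p = 0.11, and 0.015 without the 2 compressed arrays. The log2 change of Alb at the same time was -0.038 after 18 mg/kg and 0.040 after 3 mg/kg. Of 13 other secreted proteins of the hepatocyte 1 rose, beside 9.34% of all probe sets called: Afp, the fetal albumin relative, at 48 h after 3 mg/kg, by 1.36 ± 0.42 (SE, n = 3 per group; limma adjusted p = 0.046), and it missed the threshold without the 2 compressed arrays (adjusted p = 0.059). The medians of these 13 were -0.84 at 4 h after 18 mg/kg and 0.48, 0.52 and 0.51 at 4, 24 and 48 h after 3 mg/kg, with 0, 13, 13 and 13 of 13 above 0. Without the 2 compressed arrays they were 0.013, 0.17, 0.15 and 0.24.

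Across the 24 liver arrays the 10 genes were correlated with each other, a description that rests on the 2 compressed arrays. Pearson's r over the 45 pairs ran from 0.44 to 0.995 with a median of 0.85, and without those arrays from -0.57 to 0.94 with a median of 0.23, of which 8 were above 0.5 and 11 below 0. The genes with the pattern most like that of Apoa4 over the 24 arrays, out of 13973 genes searched, were Cct7 (r = 0.98, Spearman's rho = 0.84), Mrpl2 (r = 0.98, rho = 0.71) and Lcat (r = 0.98, rho = 0.71), and r was 0.80, 0.76 and 0.74 without the 2 arrays. Those most like Alb were Ctnnb1 (r = 0.94), Cltc (r = 0.94) and Arhgap17 (r = 0.93), at 0.74, 0.63 and 0.62 without the 2 arrays. Arrays of a tissue share their normalisation, and no test was run on these values.

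In cortex Apoe was abundant and no change of it was called. Its log2 level was 13.14 ± 0.23 (SD, n = 24), between 12.52 and 13.80, with the same probe set as in liver. In the 18 mg/kg arm the arrays stood at 13.18, 13.18 and 13.27 at 0 h, 13.09, 13.28 and 13.19 at 4 h, 13.16, 12.90 and 13.26 at 24 h, and 13.05, 12.52 and 13.09 at 48 h. In the 3 mg/kg arm they had 13.20, 12.76 and 13.21 at 0 h, 13.29, 13.16 and 13.80 at 4 h, 12.94, 13.21 and 13.36 at 24 h, and 13.04, 13.20 and 13.07 at 48 h. The highest array was 3 mg/kg 4 h replicate 3 and the lowest 18 mg/kg 48 h replicate 2. At 48 h after 18 mg/kg the 3 arrays lay below the 3 arrays at 0 h, in the only comparison with 0 h whose Apoe levels did not overlap; 14.8% of all probe sets did not overlap there.

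None of the 6 changes of Apoe in cortex passed the threshold (limma; over all probe sets 0%, 0% and 0% were called at 4, 24 and 48 h after 18 mg/kg, and 0%, 0.0741% and 0% after 3 mg/kg). The log2 changes after 18 mg/kg were -0.025, -0.10 and -0.32 ± 0.17 (SE, n = 3 per group) at 4, 24 and 48 h, the last with a 95% interval of -0.68 to 0.037 and limma adjusted p = 0.35. After 3 mg/kg they were 0.36 ± 0.17, 0.12 and 0.047, the first with an interval of 0.0041 to 0.72 and limma adjusted p = 0.39. It was the only one of the 6 with an unadjusted p under 0.05, as were 3905 of 31042 probe sets in that comparison. Without 3 mg/kg 4 h replicate 3 that change was 0.17, and without 18 mg/kg 48 h replicate 2 the change at 48 h was -0.14. Leaving out the 4 cortex arrays highest in liver transcripts, a choice made after seeing the data, gave no call of Apoe either. The mean of 10 astrocyte markers, the cells that make Apoe in brain, lay between 10.70 and 10.98 in the 24 arrays. The genes most like Apoe over the 24 cortex arrays, out of 13973, were Hmox2 (r = 0.86, rho = 0.64), Tns2 (r = 0.86, rho = 0.82) and Gnas (r = 0.85, rho = 0.66).

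**Figure D4:**
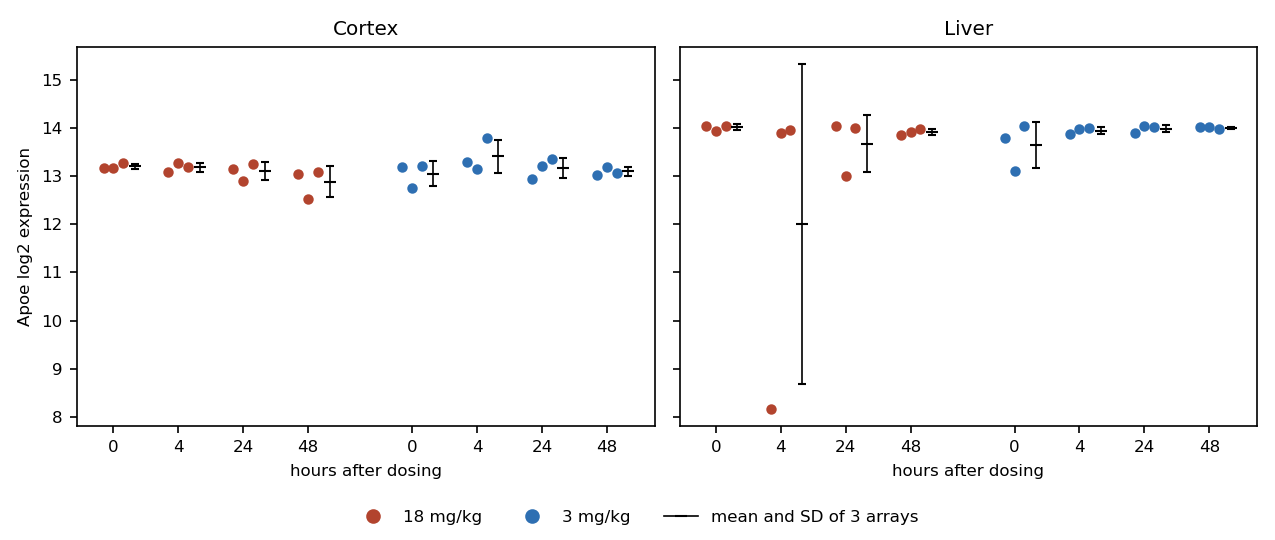
Log2 expression of Apoe in cortex (left) and liver (right) by hours after dosing, with 18 mg/kg (red) left of 3 mg/kg (blue), arrays as points and the mean with SD of 3 arrays in black. Cortex arrays lay between 12.52 and 13.80, and the liver array at 8.17 is 18 mg/kg 4 h replicate 1.

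At 0 h, before any time had passed after dosing, Apoe averaged 13.13 ± 0.19 in cortex and 13.83 ± 0.37 in liver (SD, n = 6 each). The cortex minus liver difference was -0.70 ± 0.47 on the log2 scale (SE; limma on 48 arrays, adjusted p = 0.17), or 1.63-fold lower in cortex. Without liver 18 mg/kg 4 h replicate 1, which is no 0 h array but enters the shared estimate of spread, the difference was the same and adjusted p was 4.2e-05. Without both compressed liver arrays, a choice made after seeing the data, it was -0.84 and adjusted p was 1.4e-06. The other 9 genes were lower in cortex at 0 h with log2 differences of -5.03 (Alb) to -8.40 (Apoa1), and were called, as were 77.4% of all probe sets in this comparison. The cortex arrays at 0 h were uneven in these genes. Alb averaged 9.26 ± 1.44 in them (SD, n = 6), with 18 mg/kg 0 h replicate 3 at 11.76. At 0 h Apoc1 averaged 8.09 ± 0.41 in cortex and 13.45 ± 0.28 in liver (SD, n = 6 each), and Apoa1 4.81 ± 0.52 in cortex and 13.21 ± 0.43 in liver. No detection calls were used here, so the low cortex levels are not shown to be above background, and these differences are not given as folds.

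The transcripts of liver were not at a constant floor in cortex. Alb ranged from 6.96 to 14.02 over the 24 arrays, and the arrays fell into 4 with Alb of 13.59 to 14.02, 3 with 11.76 to 12.38 and 17 with at most 9.94. These sets were read from the data and are no groups of the study, so no test is given between them. In the 18 mg/kg arm Alb was at 9.94, 8.64 and 11.76 at 0 h, 7.96, 13.59 and 8.13 at 4 h, 12.38, 8.01 and 8.45 at 24 h, and 7.23, 13.93 and 14.02 at 48 h. In the 3 mg/kg arm it was at 7.88, 8.07 and 9.25 at 0 h, 13.64, 7.69 and 6.96 at 4 h, 7.99, 8.08 and 9.58 at 24 h, and 12.19, 9.01 and 7.48 at 48 h. The 4 highest arrays were 18 mg/kg 48 h replicates 3 and 2, 3 mg/kg 4 h replicate 1 and 18 mg/kg 4 h replicate 2, and the next 3 were 18 mg/kg 24 h replicate 1, 3 mg/kg 48 h replicate 1 and 18 mg/kg 0 h replicate 3. High arrays thus stood beside low arrays of the same group, and 1 of the 7 was a 0 h array.

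The liver transcripts were high together. In the 4 arrays chosen for the highest Alb, each of the 8 genes other than Alb and Apoe lay above its level in all other 20 cortex arrays, and Apoe did not. Apoc3 was at 11.38 to 12.07 in the 4 arrays and 8.39 to 8.90 in the next 3, with a median of 5.21 in the other 17. Ahsg was at 10.41 to 11.37, 7.13 to 8.23 and a median of 4.97 in the same sets, and Apoh at 9.89 to 11.20, 7.03 to 7.98 and a median of 4.70. Apoa1, Apoa2 and Apob reached 9.51, 10.68 and 9.62. Apoc1 started higher, with a median of 8.33 in the 17 arrays and 10.75 to 11.55 in the 4. Apoa4 moved least, at 6.31 to 7.02 in the 4 arrays and a median of 5.11 in the 17. In the next 3 arrays, also chosen by Alb, 6 of the 8 genes lay above all 17, and Apoa4 and Apoc1 overlapped them.

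**Figure D5:**
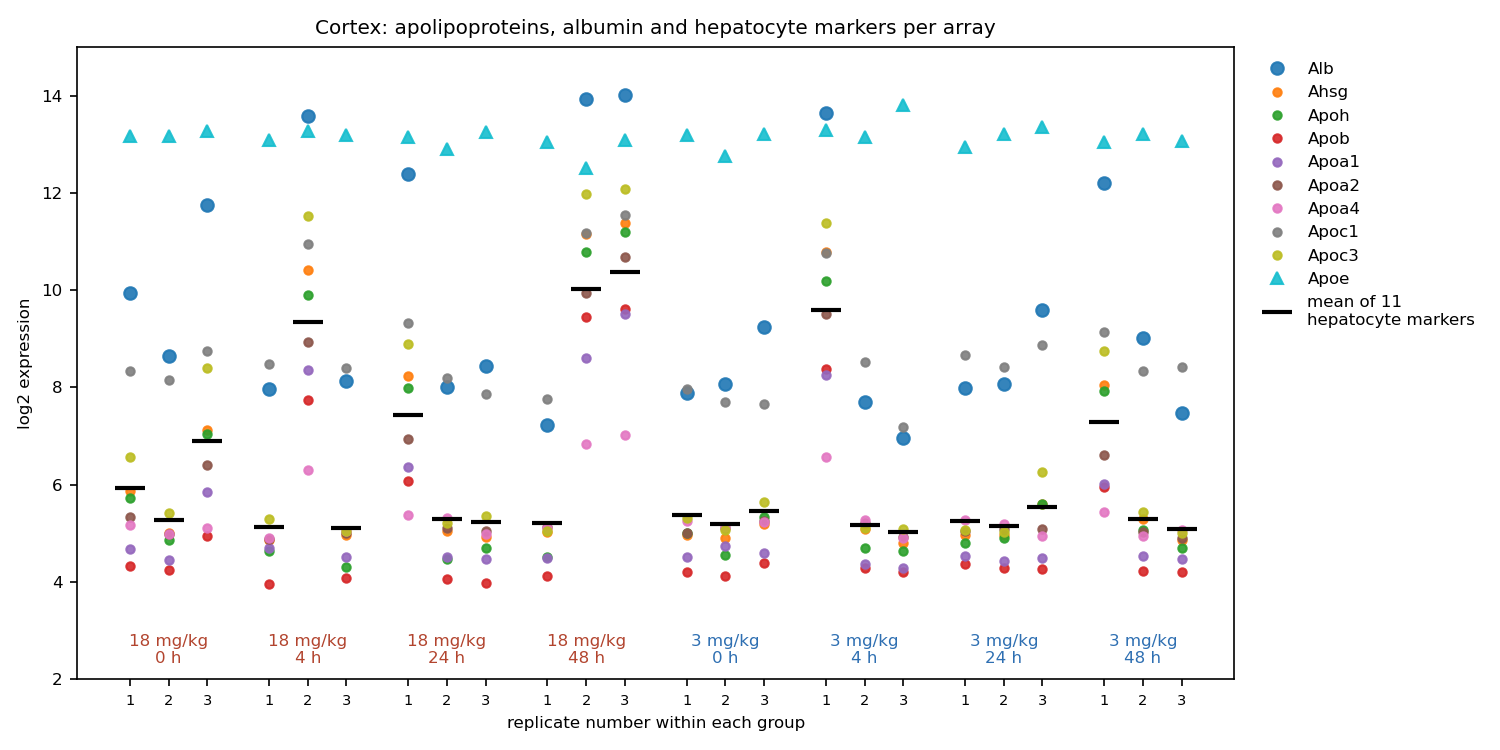
Log2 expression of the 10 genes in each of the 24 cortex arrays by group, with 18 mg/kg left of 3 mg/kg, and the mean of 11 hepatocyte markers as black bars. In the 4 arrays with Alb at 13.59 to 14.02 the 8 genes other than Alb and Apoe (circles) and the hepatocyte marker mean lie above their levels in the other 20, while Apoe (triangles) stays between 12.52 and 13.80 in all 24.

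At their highest in cortex these transcripts stayed below their liver medians. The highest cortex level was 1.24-fold below the liver median for Alb, 3.69-fold for Apoc3, 4.10-fold for Apoc1, 5.10-fold for Ahsg, 5.11-fold for Apoh, 7.47-fold for Apoa2, 9.67-fold for Apob, 15.05-fold for Apoa1 and 39.2-fold for Apoa4. These are ratios of the deposited values, and the Alb probe set is the one that differed from its second probe set in the compressed liver arrays.

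Markers of other cells were set beside these arrays. Each of the 11 measured hepatocyte markers, of 12 listed, was higher in the 4 arrays than in the other 20, and their mean was 9.34 to 10.37 in the 4, 6.89 to 7.43 in the next 3 and 5.02 to 5.92 in the 17. Of 4 measured Kupffer cell markers, of 6 listed, 2 were, and the mean was 5.70 to 6.13, 5.15 to 5.21 and 4.88 to 5.34. Of 10 astrocyte, 10 microglia, 6 neuron, 6 choroid plexus, 3 red blood cell and 7 intestine and pancreas markers 0 were. The choroid plexus mean was 6.12 to 6.61 in the 4 arrays, against 6.28 to 6.89 in the 17, and the red blood cell mean 8.60 to 9.00, against 8.37 to 9.20. The 3' minus 5' gap of actin was 2.30 to 4.39 in the 4 arrays and 1.65 to 4.61 in the 17. Their part in the levels of the 9 genes was not tested. The genes most like Alb over the 24 cortex arrays were Gc (r = 0.98), Fabp1 (r = 0.98) and Serpina3c (r = 0.97), and r was 0.96, 0.96 and 0.95 over the 20 arrays left without the 4 highest. Gc encodes the vitamin D binding protein of plasma and Fabp1 the fatty acid binding protein of hepatocytes. The arrays lie in separate sets, and these values are a description of 24 arrays of shared normalisation.

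The mean over the 9 genes was highest in the 3 groups that held the 4 high arrays, while for Alb alone the 18 mg/kg 0 h group (10.11) stood above the 4 h groups of 18 mg/kg (9.89) and 3 mg/kg (9.43). The mean of the 9 genes was 6.37 ± 0.82, 6.92 ± 2.45, 6.34 ± 1.39 and 8.86 ± 3.02 (SD, n = 3 each) at 0, 4, 24 and 48 h after 18 mg/kg, and 5.63 ± 0.18, 6.91 ± 2.62, 5.77 ± 0.27 and 6.33 ± 1.26 after 3 mg/kg. At 48 h after 18 mg/kg the change of Apob was 3.23 ± 1.25 on the log2 scale (SE, n = 3 per group; limma adjusted p = 0.21) and that of Apoa4 1.23 ± 0.43 (adjusted p = 0.17), and the 10 genes had a median of 2.72, beside -0.0085 over all probe sets. In the 6 comparisons with 0 h 0 of the 9 genes passed, and 4, Apoa1, Apoa2, Apoa4 and Apob, had an unadjusted p under 0.05 in 1 comparison, that at 48 h after 18 mg/kg. In that comparison 5151 of 31042 probe sets did. Leaving out 18 mg/kg 48 h replicate 1, the low array of its group, made the change 5.03 for Apob and 1.83 for Apoa4 (limma adjusted p = 0.03 and 0.024; 1.13% of all probe sets called). Without that array Apoa2, Apoa4 and Apob were also called between 18 and 3 mg/kg at 48 h, where 1.49% of all probe sets were. Replicates 2 and 3, the arrays left in that group, are both among the 4 highest in Alb. These calls thus follow from which array was left out and are no test of the dose. Leaving out the 4 highest arrays made the change of Alb at 48 h after 18 mg/kg -2.88, with 1 array left in the 48 h group. Between 18 and 3 mg/kg 0 of the 10 genes passed in cortex at 0, 4, 24 and 48 h, where 0%, 3.7%, 0% and 1.32% of all probe sets were called, and 4 had an unadjusted p under 0.05, again Apoa1, Apoa2, Apoa4 and Apob at 48 h. In the comparison of all later times with 0 h (0.00322% of all probe sets called), the F test of whether time courses differed between doses (0.00322%) and that for any difference among 8 groups (0.00644%) 0 of the 10 passed, and 0 had an unadjusted p under 0.05. The arrays of later groups did not overlap those at 0 h for 0, 0 and 1 of the 10 genes at 4, 24 and 48 h after 18 mg/kg (17%, 8.91% and 14.8% of all probe sets), and for 0, 1 and 1 after 3 mg/kg (16.1%, 19.6% and 20.6%). Between the doses there were 1, 0, 0 and 0 such genes at 0, 4, 24 and 48 h (8.37%, 38.4%, 12.1% and 24.6%). The gene was Apoe at 48 h after 18 mg/kg and Apoc1 in the others, where it was higher at 24 and 48 h than at 0 h after 3 mg/kg, and higher with 18 than with 3 mg/kg at 0 h.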

How the data were processed

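Affymetrix whole-genome rat arrays measured biotin-labelled RNA of liver and cortex in 48 samples, 1 colour, 3 arrays in each of 16 groups taken from the sample labels. The authors deposited log2 values. RMA and Partek are named in the submitters' processing notes, with no version or setting, and which of its steps were applied is not known: the SD over probe sets ran from 1.38 to 2.08 between liver arrays, so their distributions were not made equal. No scaling was added. The file held 31099 probe sets, of which 57 controls were left out. The platform annotation gave 1 symbol to 20826 of the rest, several to 436 and none to 9780. It can be old.

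In limma 3.58.1 (R 4.3.3) each tissue had a model over its 24 arrays with 8 group means and moderated variances, with two-sided tests adjusted by Benjamini-Hochberg within a contrast over 31042 probe sets, with a threshold of 0.05. The tissues were compared in a fit of 48 arrays. The contrasts were each later group against its own 0 h group, all later groups against 0 h, 18 against 3 mg/kg at each time, an F test for a dose difference in the time course and an F test among 8 groups. The models were tried on simulated data with independent normal noise for each probe set. Those data held no outlying arrays, so they do not cover arrays like the compressed ones. Figures were drawn in matplotlib from the tables of results.

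The 10 genes and the lists were chosen with earlier results of these data known. Genes outside the 10 were named by a rule: those of the pathway and transcription factor lists past the threshold in a liver contrast with 0 h (otherwise the smallest p of the list), and the 3 genes with the highest Pearson r to Apoa4 and Alb in liver and to Apoe and Alb in cortex, passing over LOC and RGD names. Dbp, Afp and the arrays singled out were named after their values were seen. Alternatives were other normalisations, filters, probe sets, covariates, array weights, a replicate block and leaving out arrays. Arrays carry no count of molecules, and their number limits the precision. Same-numbered arrays were set against each other over 36 pairs: the correlations of their deviations from the group means ran from -0.43 to 0.48, 11 were over 0.1, and the numbers were not taken as a pairing.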

Additional observations from a re-analysis of the deposited data

How the results depend on the processing

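Of 290 values of the comparisons under alternatives 281 were classed as the same, and so were 812 of 842 values of single genes and medians. A gene's change was the same if it kept its sign and its side of the threshold, and a count of calls if it stayed at 0. A median was the same if it moved by less than the median within-group SD of the 10 genes, so it could cross 0. In cortex at 4 h after 3 mg/kg the median, 1.21 with all arrays, fell as low as -0.10 and was still classed so. Within a tissue no gene of the 10 was called with all arrays, so no call could be lost there. With array weights, 9 calls were made in the liver comparisons with 0 h, all after 3 mg/kg and of Apoa2, Apoa4, Apoc1 and Apoc3. The same weights called 32.2%, 34.7% and 42.7% of all probe sets at 4, 24 and 48 h after 3 mg/kg. For all later times against 0 h 1 gene was called (27.6% of all probe sets), and 4 between the doses at 0 h (38.4%). The F test of time courses called 1 (30.2%) and that for any difference 1 (41.9%). Leaving out 1 array at a time gave 0 to 2 calls in the liver comparisons with 0 h, the 2 without 18 mg/kg 4 h replicate 1, and 0 to 2 of the 9 genes in cortex, the 2 without 18 mg/kg 48 h replicate 1. The cortex minus liver difference of Apoe ran from -0.84 to -0.60 and passed without liver 18 mg/kg 4 h replicate 1 (-0.70) and without both compressed arrays (-0.84). The replicate block changed no call, with 0 members called in each comparison and -0.70 for Apoe between the tissues (adjusted p = 0.16).

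Signs turned for changes that had not passed. In liver at 4 h after 18 mg/kg Apoe was at 0.76 by its second probe set, Apob at 0.080 with array weights and 0.25 without the 2 compressed arrays, and Apoa1 at 0.061; leaving out 1 array gave -2.13 to 0.25 for Apob and -2.13 to 0.061 for Apoa1. In cortex the second Apoe probe set gave -0.099 and -0.038 at 4 and 24 h after 3 mg/kg and 0.12, 0.25 and 0.13 at 4, 24 and 48 h after 18 mg/kg. Its mean log2 level in cortex was 4.58, against 13.14 for the first probe set. A level that low is not shown to be above background, so these signs say little about Apoe. Apoe at 4 h after 18 mg/kg was at 0.029 after quantile normalisation, 0.010 with array weights and 0.053 against pooled 0 h groups, and at 48 h after 3 mg/kg at -0.0028 with weights and -0.031 against pooled groups. Leaving out 1 array gave -0.034 to 0.23 for Apoe at 24 h and -0.10 to 0.12 at 48 h after 3 mg/kg, and -0.072 to 0.024 at 4 h after 18 mg/kg. Alb in cortex at 48 h after 18 mg/kg was at -2.01 with the hepatocyte marker mean as a covariate and at -2.88 without the 4 arrays highest in liver transcripts. The causes were not tested. The spread of 3 arrays limits what can be seen: in liver the 95% interval of Apoe spanned -3.78 to -0.24 at 4 h after 18 mg/kg with all arrays.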
